A study of Homo sapiens with 9 samples.

Results

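The 313 regions described here are Ago-HITS-CLIP peaks of the miR-342-3p mimic that lay at a run of alternating G and U and had no seed match. They were chosen by their presence in the deposited peak list of miR-342-3p over the negative control, which holds 3450 peaks, and they make up 9.07% of it (95% Wilson CI 8.16 to 10.1%). A peak was taken, whatever its location, when an uninterrupted GU run of at least 10 nt lay on its own strand and no farther than 50 nt from the summit, and when the same window held no 8mer, 7mer-m8 or 7mer-A1 match to the miR-342-3p seed. The presence and scores of these peaks are therefore descriptions. Tests were made only on location and gene strand, which the rule did not name. The rule does ask for a GU run, however, and such runs are unevenly spread over locations. These tests do not correct for that spread.

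The cells were MDA-MB-231HM, a highly metastatic variant of the human triple-negative breast cancer line MDA-MB-231, with the label giving a wild-type genotype. The 9 libraries form 3 groups of 3, which all received 20 nM of a mimic for 48 h, and the mimic was miR-342-3p, miR-342-5p or a negative control. In Ago-HITS-CLIP, Argonaute is crosslinked to the RNA that it holds and pulled down, and the attached RNA fragments are sequenced. Peaks were called on each strand separately with the replicates merged, so there is no value per library and no replicate error, and the labels do not say whether replicates were separate cultures.

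A microRNA guides Argonaute to an mRNA mainly through its seed, the bases near its 5′ end, and pairing there to a 3′UTR usually leads to decay of the mRNA or to less translation. Sites that pair outside the seed, or only in part, are also found by crosslinking and are as a rule weaker. Alternating GU tracts are common dinucleotide repeats in the human genome, and on the opposite strand the same repeat reads as alternating A and C.

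The mature miR-342-3p is shown with its seed, positions 2 to 8, in capitals, because the letters next to the seed decide how a GU run can pair. The sequence is that of RefSeq (GRCh38.p14).
hsa-miR-342-3p: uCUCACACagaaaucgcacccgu
Positions 4 to 9 (cacaca) form its longest stretch that pairs base for base with an alternating GU run, and a run that continues past them can pair with 6 of the 7 seed positions, all but position 3. The site words are GUGUGAGA for the 8mer, GUGUGAG for the 7mer-m8 and UGUGAGA for the 7mer-A1, and a run ending in GUGUG before AG thus holds a 7mer and was left out by the rule. The 6mer UGUGAG, which the rule allowed, was present in 9 of the 313 windows (2.88%).

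The next sequences are 3′UTR sites of high-scoring peaks and of SMAD2 and DCP2, genes of lists described further on. The run is in capitals on the strand of the RNA. ADAM8, whose score of 360 is above those of EPHA2 and BHLHE40, is not printed, and its run lay 7 nt from the summit. Positions are GRCh37 (hg19), and the sequences are those of the reference genome.
PRSS23, chr11:86519924-86519953 (+): acGUGUGUGUGUGUGUGUGUGUGUGUGUaa
DDB1, chr11:61067261-61067290 (-): agcugugcGUGUGUGUGUGUGUaugugugu
HMGB2, chr4:174253181-174253210 (-): cguguggaaUGUGUGUGUGUGcucaggcaa
ZDHHC7, chr16:85009344-85009373 (-): ucagcaagucUGUGUGUGUGcgugucugug
LFNG, chr7:2566965-2566994 (+): cgugugcGUGUGUGUGUGUGUGUacugcau
EPHA2, chr1:16451089-16451118 (-): uggagagaaUGUGUGUGUGUGgcagggggc
BHLHE40, chr3:5025513-5025542 (+): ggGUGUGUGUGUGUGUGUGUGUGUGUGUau
SMAD2, chr18:45367801-45367830 (-): cauagaugagGUGUGUGUGUGcgcugcuuc
DCP2, chr5:112350448-112350477 (+): ugaguauaUGUGUGUGUGUGUaacuaucau
In EPHA2, SMAD2 and DCP2 the run stood alone in the printed bases, whereas in DDB1, ZDHHC7, LFNG and HMGB2 further GU steps lay next to it after 1 or more interrupting bases.

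Coding exons and the long non-coding RNA NEAT1 are shown because the same repeat occurs there in another setting, again with the run in capitals.
PCNX4, coding exon, chr14:60585298-60585357 (+): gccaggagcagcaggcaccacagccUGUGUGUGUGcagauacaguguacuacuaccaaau
ACVR1, coding exon, chr2:158637044-158637103 (-): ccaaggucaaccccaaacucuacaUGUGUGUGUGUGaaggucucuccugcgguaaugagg
TNC, coding exon, chr9:117848710-117848769 (-): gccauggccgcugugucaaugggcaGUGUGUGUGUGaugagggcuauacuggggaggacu
NEAT1, non-coding exon, chr11:65196950-65197009 (+): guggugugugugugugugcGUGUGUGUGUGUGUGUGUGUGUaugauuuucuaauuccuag
The last set holds long runs, of which only the 3′ end is printed, in a 5′UTR (XPO1), in a 3′UTR (PTPN3) and on the strand opposite a 3′UTR (C10orf71 and ACVR2B), to show the repeat on both strands of genes.
XPO1, 5′UTR, chr2:61764878-61764907 (-): GUGUGUGUGUGUGUGUGUGUugggggaagc
PTPN3, 3′UTR, chr9:112139666-112139695 (-): GUGUGUGUGUGUGUGUGUGUagagacagga
opposite C10orf71, chr10:50534960-50534989 (-): GUGUGUGUGUGUGUGUGUGUugcuuguuuu
opposite ACVR2B, chr3:38534213-38534242 (-): GUGUGUGUGUGUGUGUGUGUaauauauaua

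The GU runs of the miR-342-3p windows lay on the strand of the peak. With or without a seed match, 437 of its 3450 windows held a run of at least 10 nt on the strand of the peak (12.7%, CI 11.6 to 13.8%), and 3 held one on the opposite strand (0.0870%). For the miR-342-5p mimic, called against the same control libraries, 9 of 4963 windows on nuclear chromosomes held a run on the peak strand (0.181%, CI 0.0954 to 0.344%), and 5 held one on the other strand (0.101%). The seedless peaks account for 313 of the 437, and 124 peaks had both a run and a seed match. Only the run at SLC1A5, a glutamine transporter gene named after its values were seen, also had a miR-342-5p peak, and its score was 33 there, against 158 for its miR-342-3p peak at a run of 38 nt. The 30 nt around its miR-342-3p summit had 200729 other copies in the genome.

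The runs were of very different lengths. The median was 25 nt, with quartiles of 13 and 39 nt and extremes of 10 and 73 nt, and 127 peaks had a run of 10 to 19 nt, 50 one of 20 to 29 nt, 63 one of 30 to 39 nt and 73 one of 40 nt or more. The plot of run lengths by location shows many runs under 15 nt, fewer from 25 to 34 nt and a second group from 35 nt on. Each of the 313 peaks had its own run, and 54 windows held more than 1 run (17.3%).

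**Figure D1:**
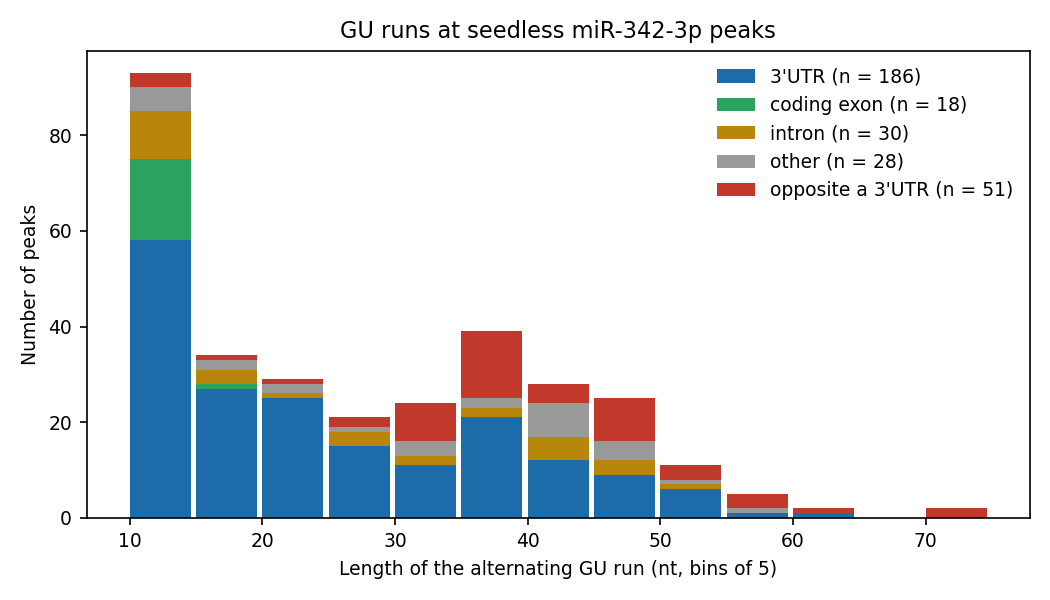
Number of seedless miR-342-3p peaks (vertical axis) by length of the GU run in nt (horizontal axis, bins of 5 nt), coloured by the location of the peak on its strand, where "other" joins 5′UTRs, non-coding exons and the remaining places without a gene on the strand. All 18 peaks in coding exons had runs of 10 to 15 nt, and 137 of the 140 annotated coding runs are of 10 to 14 nt. Of the 51 peaks opposite a 3′UTR, 44 had runs of 30 nt or more.

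The run lay at the summit. The summit fell inside the run in 247 of 313 peaks (78.9%, CI 74.1 to 83.1%), the run was within 10 nt of the summit in 296 (94.6%), and the peak overlapped the run in 308. Of the other peaks, 43 had the run on the 3′ side of the summit and 23 on the 5′ side. The summit was inside 69 of the 127 runs of 10 to 19 nt (54.3%) and inside 178 of the 186 runs of 20 nt or more (95.7%). A long run also fills more of the window. In both classes the run reached farther to the 3′ side. The position 20 nt to the 3′ side of the summit was inside the run in 54.3% of the peaks with a long run, against 29.0% for the position 20 nt to the 5′ side. For short runs the values at 10 nt were 34.6% and 16.5%.

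**Figure D2:**
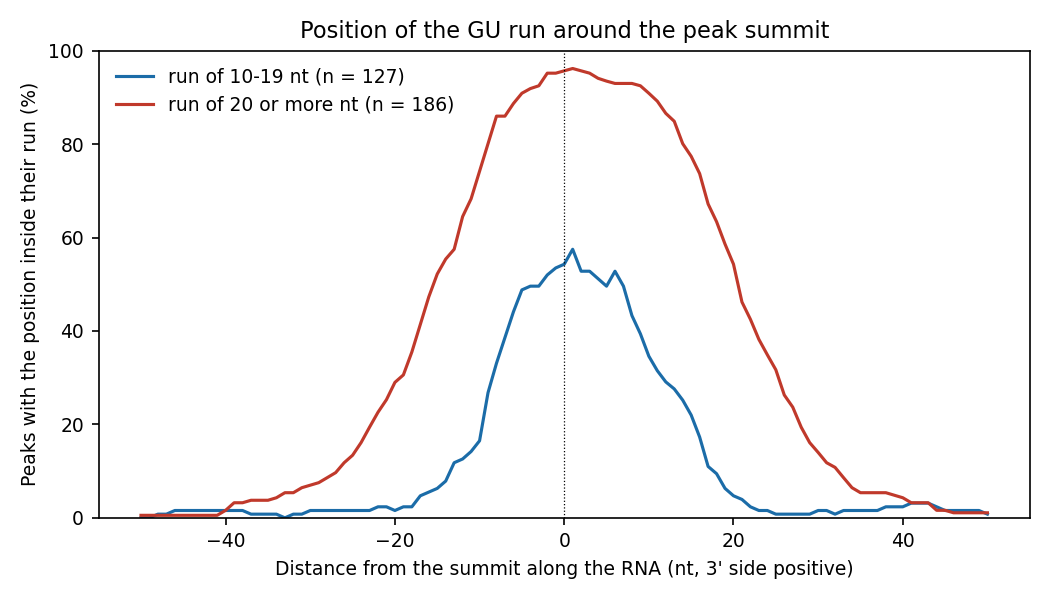
Share of peaks (vertical axis, %) whose run covers a given distance from the peak summit along the RNA (horizontal axis, nt, 3′ side positive), for runs of 10 to 19 nt (n = 127) and of 20 nt or more (n = 186). At the summit the shares were 54.3% and 95.7%, and both curves lean to the 3′ side.

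Scores of the seedless GU peaks were like those of the list as a whole. The score, which the authors describe as reads above background, had a median of 23 (quartiles 13 and 48, range 6 to 2295) against 24 for all 3450 peaks, and 36 of 313 scored above 100 (11.5%) against 374 of 3450 (10.8%). A score also rises with the amount of an RNA in the cell, and the lists give no RNA level, so scores of different genes do not compare how well their sites are bound. Run length and score were only weakly related. Spearman's rho between run length and score was -0.14 over the 313 peaks, which share libraries and background, -0.15 over the 186 in 3′UTRs and 0.17 over the 59 with no gene on the strand. No interval was computed for these values, so their signs are not compared between locations. The median score was 30 for runs of 10 to 14 nt, 23.5 for 15 to 19 nt, 41 for 20 to 29 nt, 17 for 30 to 39 nt and 19 for 40 nt or more.

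**Figure D3:**
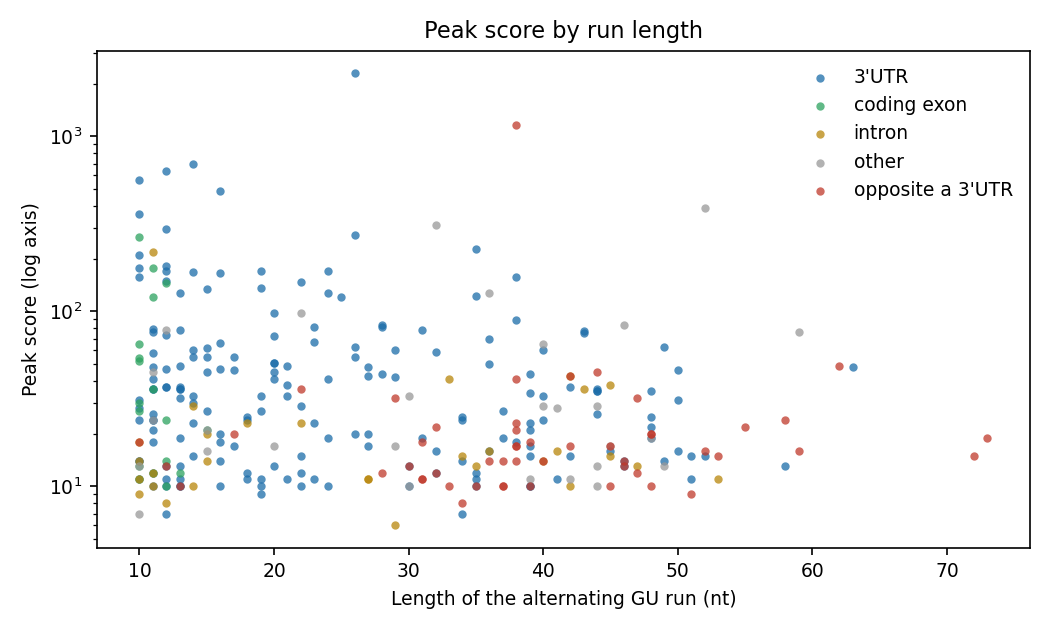
Peak score (vertical axis, log scale) against the length of the GU run in nt (horizontal axis), 1 point for each of the 313 peaks, coloured by location. PRSS23 stands highest at 2295 with a run of 26 nt, and nearly all points opposite a 3′UTR lie at long runs and low scores, except the one opposite C10orf71 at 1162.

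At the threshold of the rule there was no step in score. The 26 peaks with a run of exactly 10 nt had a median of 25.5, and the highest were ZDHHC7 (562), which encodes a palmitoyltransferase, ADAM8 (360), which encodes a cell surface metalloproteinase, and PCNX4 (268). The 37 seedless peaks whose longest run was 9 nt, which the rule left out, had a median of 28.0. The highest of those were NT5E (733), which encodes the ectonucleotidase CD73, KIF23 (272), a mitotic kinesin gene, and PPP1R26 (159).

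Most of these peaks were in 3′UTRs. A 3′UTR held 186 of the 313 (59.4%, CI 53.9 to 64.7%), against 717 of the 2425 peaks with neither run nor seed match (29.6%, CI 27.8 to 31.4%) and 277 of the 712 with a seed match (38.9%, CI 35.4 to 42.5%). The odds ratios were 3.49 (two-sided Fisher's exact test, Benjamini-Hochberg adjusted p = 2.4e-24) and 2.30 (adjusted p = 1.7e-09, same test). Coding exons showed the opposite, with 18 seedless GU peaks (5.75%, CI 3.67 to 8.91%), against 64.8% of the peaks with neither and 43.5% of those with a seed match (odds ratios 0.0331 and 0.0791, adjusted p = 1.2e-96 and 1.4e-38, Fisher's exact test). In these 2 locations the 124 peaks with both a run and a seed match, which are part of the 712, lay closer to the seedless GU peaks. Of them, 48.4% were in 3′UTRs (CI 39.8 to 57.1%) and 2.42% in coding exons (CI 0.826 to 6.87%). In introns they differed, with 31.5% (CI 23.9 to 40.1%) against 9.58% of the seedless GU peaks (CI 6.80 to 13.4%). Introns held 4.25% of the peaks with a seed match and no run, and 1.32% of those with neither. With all transcripts of the annotation in place of the basic ones, the 3′UTR differences were 13.6 percentage points against peaks with neither and 8.92 points against those with a seed match, from 29.9 and 20.5. Runs are also rarer in coding sequence: the annotation held 140 GU runs of at least 10 nt in coding exons and 1934 in 3′UTRs on the strand of the gene. Of those runs, 13.6% in coding exons and 15.2% in 3′UTRs had a miR-342-3p peak, with or without a seed match. These shares pool run lengths, and coding runs are nearly all short. For runs of 10 to 14 nt the coding share was 13.9% (19 of 137, CI 9.06 to 20.6%). The 3′UTR share was then 10.6% (135 of 1270, CI 9.05 to 12.4%), and the intervals overlap. The tests do not correct for where runs occur, treat peaks as independent and cover counting error only.

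**Figure D4:**
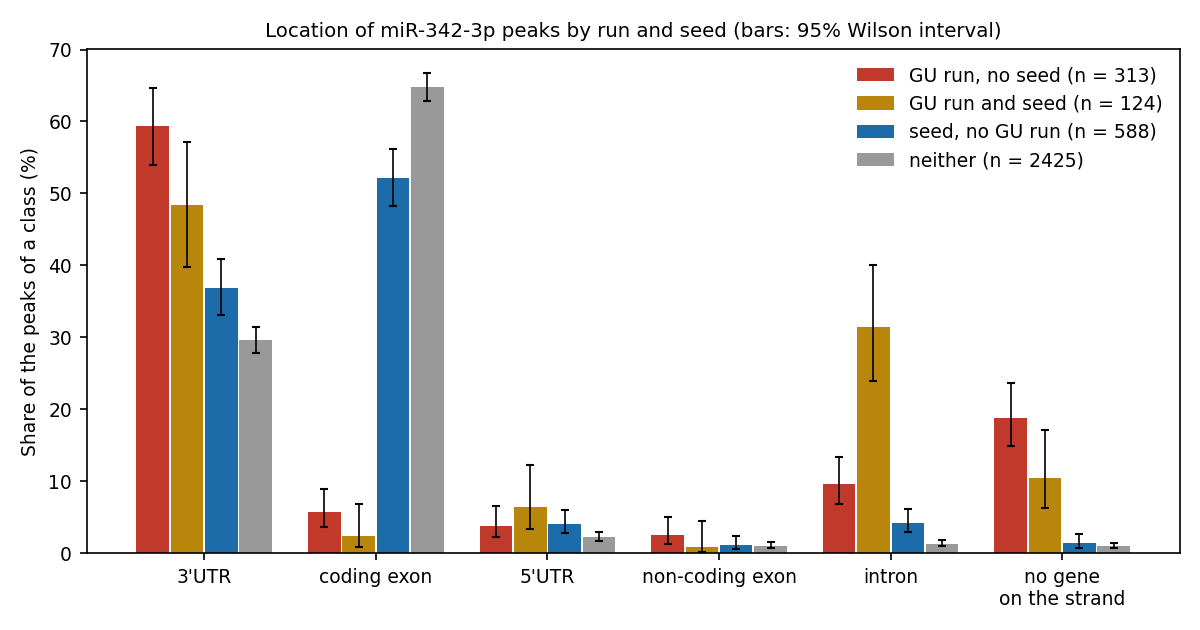
Share of peaks (vertical axis, %) in each location on the strand of the peak (horizontal axis) for the 4 classes of miR-342-3p peaks by GU run and seed match, with 95% Wilson intervals as bars. The seedless GU peaks had the largest share in 3′UTRs (59.4%) and without a gene on the strand (18.8%), and a coding share of 5.75% against 64.8% for peaks with neither.

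The remaining peaks were spread over several places. Introns held 30 (9.58%), 5′UTRs 12 (3.83%) and non-coding exons 8 (2.56%). The other 59 positions lacked an annotated gene on the peak strand (18.8%, CI 14.9 to 23.6%), against 0.990% of the peaks with neither run nor seed match and 2.95% of those with a seed match (odds ratios 23.2 and 7.64, adjusted p = 1.4e-38 and 1.4e-16, Fisher's exact test). The seed-match peaks again differed by run, with 10.5% of the 124 with a run (CI 6.23 to 17.1%) and 1.36% of the 588 without one lacking a gene on the strand, and the first interval overlaps that of the seedless GU peaks. Of the 59 seedless GU peaks, 51 lay opposite a 3′UTR, 7 opposite other parts of a gene and 1 had no gene on either strand. Positions with a gene on the opposite strand only made up 18.5% of the seedless GU peaks and 0.371% of the peaks with neither (odds ratio 61.1, p = 2.7e-47, Fisher's exact test). These 2 comparisons changed with the score and with the uniqueness of the sequence. Above a score of 50, the difference from peaks with neither was 1.98 percentage points for no gene on the strand (adjusted p = 0.179, Fisher's exact test) and 2.70 points for a gene on the opposite strand only (p = 0.0136, Fisher's exact test). Where the 30 nt around the summit occur nowhere else in the genome, the differences were 1.35 points (adjusted p = 0.155) and 1.91 points (p = 0.0147, Fisher's exact test). Against peaks with a seed match, the difference for no gene on the strand was 0.713 points above a score of 50 and 0.674 points in unique sequence, and neither passed the test.

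Location changed with run length. Among runs of 10 to 19 nt, 85 of 127 peaks were in 3′UTRs (66.9%), 18 in coding exons (14.2%), 13 in introns (10.2%) and 5 had no gene on the strand (3.94%, CI 1.69 to 8.89%). Among runs of 20 nt or more, 101 of 186 were in 3′UTRs (54.3%), 17 in introns (9.14%) and 54 had no gene on the strand (29.0%, CI 23 to 35.9%). In coding exons there were 0, but the annotation held only 1 run of that length there on the gene strand. The difference was 25.1 percentage points for no gene on the strand (adjusted p = 6.0e-09, Fisher's exact test) and -12.6 points for 3′UTRs (adjusted p = 0.0266, Fisher's exact test). Neither difference passed the test above a score of 50 or among peaks whose 30 nt have no other copy, and that for 3′UTRs did not pass with runs of 8 nt or more either (-2.34 points).

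The uniqueness of the sequence moved with run length. The 30 nt around the summit had no other copy in the genome in 116 of the 127 peaks with a run of 10 to 19 nt (91.3%) and in 20 of the 186 with a longer run (10.8%), against 96.4% of the peaks with neither run nor seed match. More than 100 other copies existed for 125 of the 186 (67.2%). Counting every start position on both strands, 30 nt of pure repeat had 200729 or 194230 other copies, depending on the base they begin with, since each long run holds many. A read that lies wholly inside such a run can be placed at many of them, and how the authors' mapping treated those reads was not tested.

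The annotated GU runs give the other side of the comparison, namely how many runs had a peak. Of 264085 runs of at least 10 nt on either strand of the genome, 551 had the summit of a miR-342-3p peak within 50 nt on the same strand, with or without a seed match (0.209%). In 3′UTRs on the gene strand it was 294 of 1934 runs (15.2%, CI 13.7 to 16.9%), in coding exons 19 of 140 (13.6%, CI 8.86 to 20.2%) and in 5′UTRs 30 of 255 (11.8%, CI 8.37 to 16.3%). These shares pool run lengths, which differ between locations. Introns on the gene strand had 110 of 90193 runs with a peak (0.122%), exons of non-coding genes 10 of 1199 (0.834%) and positions without a gene on either strand 4 of 110305 (0.00363%).

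In 3′UTRs the share of runs with a peak was larger for longer runs on both strands, but in a different way. On the gene strand it was 10.6% for 10 to 14 nt, 18.3% for 15 to 19 nt, 24.8% for 20 to 29 nt, 26.1% for 30 to 39 nt and 33.0% for 40 nt or more. On the opposite strand, where no gene is annotated, the shares were 1.26%, 4.79%, 4.62%, 23.3% and 35.2%. At 30 nt or more, 66 of 228 runs on the gene strand (28.9%, CI 23.4 to 35.1%) and 49 of 174 on the opposite strand (28.2%, CI 22 to 35.3%) had a peak, and the intervals overlap. Runs of the same length in introns had a peak in 17 of 14177 cases on the gene strand (0.120%) and 2 of 9211 on the opposite strand (0.0217%), and in 1 of 16511 cases away from any gene. The share of long runs with a peak was thus over 25% on both strands of 3′UTRs and under 1% in introns and away from genes. In 5′UTRs on the gene strand it was 33.3% (6 of 18), in non-coding exons 4.38% and opposite other exons 3.65%. Seedless GU peaks opposite a 3′UTR, of any run length, had a median of 194230 other copies of their 30 nt. Inside a 3′UTR the median was 0.5. As peak presence chose the regions, these shares carry no test.

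**Figure D5:**
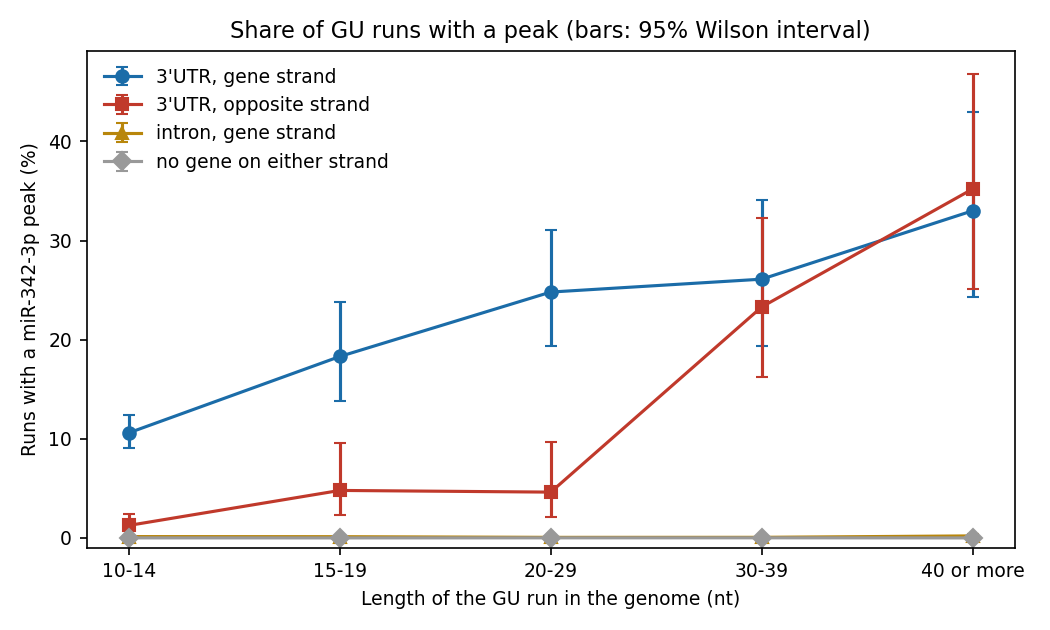
Share of annotated GU runs with a miR-342-3p peak (vertical axis, %) by length of the run in nt (horizontal axis), for 3′UTRs on the gene strand and the opposite strand, introns on the gene strand and positions without a gene on either strand, with 95% Wilson intervals as bars. The strands of 3′UTRs differ below 30 nt (10.6% against 1.26% at 10 to 14 nt) and meet at 40 nt or more (33.0% and 35.2%), while introns and gene-free positions stay near 0.

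The shares were also taken by whether the gene had a miR-342-3p peak elsewhere, away from any run. Runs of 10 to 19 nt on the gene strand of a 3′UTR had a peak in 67 of 257 cases where the gene had such a peak (26.1%, CI 21.1 to 31.8%) and in 110 of 1243 where it had none (8.85%, CI 7.39 to 10.6%). For runs of 30 nt or more on the gene strand it was 12 of 24 (50%, CI 31.4 to 68.6%) and 54 of 204 (26.5%, CI 20.9 to 32.9%). On the opposite strand, runs of 30 nt or more had a peak in 2 of 9 cases (22.2%) and 47 of 165 (28.5%), and 9 runs are too few to tell these apart. Among the genes with a seedless GU peak on their strand, 51 of 119 with a run of 10 to 19 nt had a further miR-342-3p peak outside this class (42.9%, CI 34.3 to 51.8%) and 25 of 131 with a longer run (19.1%, CI 13.3 to 26.7%). Of all 20136 protein-coding genes, 11.4% had a miR-342-3p peak of any class. The lists give no RNA levels, and the part of gene abundance in these shares was not tested.

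The bases next to the runs varied. After runs of 10 to 19 nt the next base was A in 37.8%, C in 34.6%, U in 15.7% and G in 11.8% of 127 peaks. After longer runs it was A in 44.6%, C in 29.0%, U in 17.7% and G in 8.60% of 186. An A was thus the most frequent base after the run in both classes. For short runs, however, the intervals of A (29.8 to 46.5%) and C (26.9 to 43.3%) overlap. The bases after runs without a peak are not given here for comparison. Before the run, A made up 29.9% for short runs and 25.3% for long ones, and C 28.3% and 36.6%. The rule bears on the base after the run, since it left out runs that end in GUGUG before AG. A run also ends where the alternation breaks, so U cannot follow a final G, nor G a final U.

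The strongest peak was that of PRSS23, which encodes a secreted serine protease, with a score of 2295 (chr11:86519889-86519971, plus strand). Its run of 26 nt fills nearly all of the printed 30 nt, and the 30 nt around the summit have 99 other copies. DDB1, whose product is the adaptor of CUL4 ubiquitin ligases, followed among 3′UTR peaks with a score of 692 and a run of 14 nt (chr11:61067217-61067399, minus strand). HMGB2, a chromatin-bound high mobility group protein gene, had a score of 634 and a run of 12 nt (chr4:174253173-174253256, minus strand). The DDB1 and HMGB2 peaks, like those of ZDHHC7, LFNG, ADAM8 and EPHA2, had no other copy of the 30 nt around their summit. LFNG, which encodes a glycosyltransferase that modifies Notch receptors, scored 490 with a run of 16 nt, and EPHA2, which encodes an ephrin receptor tyrosine kinase, scored 297 with 12 nt. BHLHE40, a gene for a transcriptional repressor, scored 274 with 26 nt and 24 other copies. Of the 12 highest scores, 8 were thus in 3′UTRs of named genes, and 6 of those 8 had runs of 16 nt or less.

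The other high scores lay in different places. The peak opposite the 3′UTR of C10orf71 scored 1162 with a run of 38 nt (chr10:50534963-50535012, minus strand, 1930 other copies). A peak opposite ENSG00000277701 scored 390 with a run of 52 nt and 194230 other copies. These were the only peaks without a gene on the strand to score above 50, since the next, opposite the potassium channel gene KCNQ5, scored 49. The median score of the 51 peaks opposite a 3′UTR was 16 (quartiles 12 and 20.5), against 33 (quartiles 15 and 60) for the 186 inside one. In the 5′UTR of XPO1, which encodes the nuclear export receptor exportin 1, a run of 32 nt had a score of 313. The 30 nt around that summit had 200729 other copies. ANP32E, a gene for a histone chaperone, and BAG6, a gene for a chaperone of membrane proteins, followed among 5′UTRs with 78 and 65 at runs of 12 and 40 nt. Their 30 nt had 55 and 194230 other copies.

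The 18 coding peaks had scores of 10 to 268 with a median of 28.5, and none had another copy of its 30 nt. PCNX4, which encodes a multi-pass membrane protein, was highest (268, run of 10 nt, chr14:60585302-60585385, plus strand). TNC, which encodes the extracellular matrix protein tenascin C, had 2 coding peaks, at 176 with a run of 11 nt and at 30 with a run of 10 nt. ACVR1, which encodes a type I receptor for bone morphogenetic proteins, scored 145 with a run of 12 nt. In PCNX4 the run ended 21 nt to the 5′ side of the summit, so its score need not belong to the run. Because scores also rise with RNA level, these values do not rank coding sites against 3′UTR sites.

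Peaks in introns were mostly weak, with a median of 14 over 30 peaks. CNOT11, a gene for a subunit of the CCR4-NOT deadenylase, stood apart with 219 at a run of 11 nt in unique sequence, followed by EXT1 (43), a heparan sulfate polymerase gene, and KRBA2 (41). EXT1 and KRBA2 had 402 and 86 other copies of the 30 nt around their summit. Of the 30 intron peaks, 7 had an exon of a gene on the opposite strand, and for 4 that exon was a 3′UTR. The 8 peaks in non-coding exons had runs of 22 to 59 nt and a median score of 46.5. EBLN3P scored 128 with 36 nt and LINC02393 84 with 46 nt, and NEAT1, the long non-coding RNA that builds nuclear paraspeckles, had 2 peaks, at 98 with a run of 22 nt and at 76 with a run of 59 nt. The 30 nt around these summits had 194230, 954, 534 and 0 other copies, in that order.

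The 8 longest runs had scores of 13 to 76, around the median of 23 for all 313 peaks. The run of 73 nt opposite ACVR2B, an activin receptor gene, scored 19 and that of 72 nt opposite BDH1, a ketone body enzyme gene, scored 15. Those opposite KCNQ5 (62 nt), the glycine receptor gene GLRA2 (59 nt) and the katanin-like gene KATNAL1 (58 nt) scored 49, 16 and 24. On the gene strand, the 3′UTR of PTPN3, a tyrosine phosphatase gene, scored 48 with 63 nt and that of RAPGEFL1 scored 13 with 58 nt. Of the 8 longest runs, 5 were opposite a 3′UTR, 2 within one and 1 in NEAT1 (59 nt), which had the highest score of the 8 (76). All had 194230 or 200729 other copies of the 30 nt around the summit, except KCNQ5 (11) and NEAT1 (0).

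The genes with a seedless GU peak on their strand numbered 247, of which 7 had more than 1. Over 20136 protein-coding genes, 11.4% had any miR-342-3p peak and 1.18% a seedless GU peak. Of 18 genes for extracellular matrix and proteases, 12 had a miR-342-3p peak and 3 a seedless GU peak, namely PRSS23, TNC and FN1, the fibronectin gene (27, coding exon, 10 nt). Of 23 genes for actin, adhesion and small GTPases, 17 had a peak and 2 a seedless GU peak. These were RDX, which encodes the membrane-actin linker radixin (19, 3′UTR, 31 nt), and VCL, the gene of the focal adhesion protein vinculin (6, intron, 29 nt). Both of those peaks scored under 20, and the VCL peak had 4132 other copies of the 30 nt around its summit.

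RNA silencing and mRNA decay, a list of 25 genes, had 6 with a peak and 1 with a seedless GU peak, that of DCP2, the catalytic subunit of the decapping enzyme (128, 3′UTR, 13 nt). Of 22 genes of TGF-beta signalling, EMT and growth factor receptors, 9 had a peak and 1 a seedless GU peak, that of SMAD2, a transducer of TGF-beta signals (76, 3′UTR, 11 nt). MAPK, PI3K and cell cycle signalling had 7 of 23 genes with a peak, and complement regulators and surface receptors 6 of 11, but none of either list had a seedless GU peak. The 15 E2F-pathway genes and 17 other genes that the study itself named for this mimic had a peak in every case, but the study picked them from these libraries, so this is not independent evidence. Of them, HMGB2, NACC1, which encodes a BTB-domain transcriptional regulator (36, 3′UTR, 11 nt), and RDX had a seedless GU peak. With at most 3 genes a list, no list is described as particular.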

How the data were processed

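The authors trimmed reads with cutadapt 1.13, mapped them to hg19 with TopHat2 2.0.13, filtered alignments with Samtools, used UMI-tools, and called peaks with MACS2 2.1.1.20160309. They deposited 2 merged peak lists with a score (reads above background, 5 or more) and a summit position for each peak. Library scaling is not given in the sources used here, and the depth of each library is unknown.

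Locations are those of peak midpoints on GENCODE release 44 basic transcripts mapped to GRCh37, where 3′UTRs took priority, then coding exons, then 5′UTRs, exons of non-coding transcripts and introns. Runs and copies were searched in GRCh37 with pysam 0.24.0, samtools 1.23.1, Python 3.11.15, numpy 2.4.6 and pandas 2.3.3. Fisher's exact tests, which were two-sided, and Wilson intervals came from scipy 1.17.1. P-values were adjusted over 6 location tests and over 2 run-length tests with statsmodels 0.14.6. Figures used matplotlib 3.10.9. On simulated sequences the search found 500 of 500 planted runs.

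Members and gene lists were chosen with earlier results of these data known. Genes named are the 12 highest scores, the 8 longest runs, the 3 highest scores in each smaller location and on each side of the run threshold, and all members of 8 gene lists. Other names are marked.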

Additional observations from a re-analysis of the deposited data

How the results depend on the processing

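The differences in the share of 3′UTRs and of coding exons, against peaks with neither run nor seed match and against peaks with a seed match, kept their direction and passed the test under every alternative run, with the smallest 3′UTR differences (13.6 and 8.92 percentage points) where all transcripts of the annotation were used. The share with a gene on the opposite strand only did so too, although its difference fell to 1.91 percentage points at the lowest. None of the alternatives corrects for where GU runs occur. With runs of 20 nt or more the coding result was all but fixed in advance, since the annotation held only 1 such coding run on the gene strand. Above a score of 50, 74 peaks remained. The differences for no gene on the strand were then 1.98 points against peaks with neither and 0.713 points against peaks with a seed match. Long runs differed from short ones by 5.56 points for no gene on the strand and, in the reverse direction, by 1.46 points for 3′UTRs. Above a score of 100, with 36 peaks, these 4 differences were 5.13, 3.61, 15.4 and -9.03 points. Among the 136 peaks whose 30 nt around the summit have no other copy, an alternative chosen after seeing the data, they were 1.35, 0.674, 3.28 and, reversed, 7.76 points. None of these passed the test, and fewer peaks were tested in each setting. With runs of 8 nt or more the 3′UTR difference by run length was -2.34 points (Fisher's exact test, adjusted p = 0.629), and the cause was not tested. Runs of 20 nt or more numbered 186 and allow no comparison by length. The other 129 values kept direction and side of the threshold, or stayed within the limits for a count. No paired analysis was possible because the deposited lists merge the replicates, and for the same reason no library could be left out and no depth could be weighed.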
